A study of Rattus norvegicus with 18 samples.

Results

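The retinoid genes described here are 9 genes that take up, convert, carry, sense and break down vitamin A: Stra6, Rbp4, Rdh10, Aldh1a2, Dhrs3, Crabp1, Crabp2, Rarb and Cyp26a1. They were picked by symbol, as the rows of the deposited count files that carry those names, and all 9 were present among 28695 rows. Of the 9, Stra6, Rdh10, Dhrs3, Crabp2 and Cyp26a1 had enough reads to be tested (5 of the 11503 genes that passed a filter on low counts), and Rbp4, Aldh1a2, Crabp1 and Rarb did not.

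RNA was sequenced from 18 libraries of rat pXEN cells (named rat XENP in the labels), a precursor-like extraembryonic endoderm cell type obtained from the blastocyst and grown as a line, here of strain WKY and labelled female, at passages 32 to 51. Each of 6 groups had 3 libraries. Vesicles grown with serum (serum vesicles) are named for CHIR99021 in their titles, but the dose for the serum condition is not clear from the labels. For vesicles the labels give 3 µM CHIR99021, which inhibits the kinase GSK3, and 10 ng/ml murine LIF in N2B27 medium. They do not separate vesicles grown with serum from those grown without it (serum-free vesicles), to which this recipe was assigned here. Vacuolated cells were made with 0.5 µM CHIR99021 and collected either after a sort (sorted vacuolated cells) or without it (CHIR-vacuolated cells), or with 14% BCS, which the labels do not spell out (BCS-vacuolated cells). Normal cells were grown in the routine medium. No normal library is labelled as sorted. In sorted vacuolated cells against normal cells, the sort and CHIR99021 thus cannot be told apart. All 6 groups are of the same cell type and strain. The 3 libraries of each group were at different passages, and the labels do not say whether they came from separately derived lines. The p-values thus measure the spread between these libraries, which may be cultures of 1 line.

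Retinol travels in blood bound to Rbp4 and enters cells through the membrane receptor Stra6. Inside the cell Rdh10 oxidises retinol to retinal and Dhrs3 reduces retinal back to retinol, while Aldh1a2 makes retinoic acid from retinal. Crabp1 and Crabp2 bind retinoic acid in the cytoplasm, the nuclear receptor Rarb responds to it, and Cyp26a1 hydroxylates it for removal; Rarb, Cyp26a1 and Stra6 are textbook retinoic acid-responsive genes. In the visceral endoderm, the outer endoderm of the early embryo, retinol-binding and transport proteins serve the supply of vitamin A.

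Retinoic acid receptors bind DNA at direct repeats of a hexamer, so the promoters of 3 classical retinoic acid-responsive members are shown, from RefSeq on build GRCr8, 250 bases before to 50 bases after the gene's start, in the direction of transcription. Capitals mark the 6-base element AGGTCA, which is the consensus, or a close variant of it, namely AGTTCA, and likewise the variant GGGTCA, and finally the variant GGTTCA, searched on both strands; where 2 of them stood as a direct repeat spaced by 5 bases only that repeat is in capitals. Cyp26a1 (chr1:244883572-244883871, plus strand) and Rarb (chr15:11336142-11336441, plus strand) each held such a repeat, and Stra6 (chr8:67444507-67444806, plus strand) held 1 element and no repeat.
Cyp26a1: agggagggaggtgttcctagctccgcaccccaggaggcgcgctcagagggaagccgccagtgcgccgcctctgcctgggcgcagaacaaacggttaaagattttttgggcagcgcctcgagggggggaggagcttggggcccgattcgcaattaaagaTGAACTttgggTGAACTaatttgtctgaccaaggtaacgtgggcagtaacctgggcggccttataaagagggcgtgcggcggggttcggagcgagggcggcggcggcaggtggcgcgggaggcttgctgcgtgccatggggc
Rarb: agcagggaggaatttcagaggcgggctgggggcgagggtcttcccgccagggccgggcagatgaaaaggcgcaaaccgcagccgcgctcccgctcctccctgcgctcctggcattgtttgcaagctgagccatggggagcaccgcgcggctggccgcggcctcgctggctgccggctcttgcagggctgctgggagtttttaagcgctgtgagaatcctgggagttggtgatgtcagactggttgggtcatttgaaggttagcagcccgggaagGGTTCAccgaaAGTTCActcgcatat
Stra6: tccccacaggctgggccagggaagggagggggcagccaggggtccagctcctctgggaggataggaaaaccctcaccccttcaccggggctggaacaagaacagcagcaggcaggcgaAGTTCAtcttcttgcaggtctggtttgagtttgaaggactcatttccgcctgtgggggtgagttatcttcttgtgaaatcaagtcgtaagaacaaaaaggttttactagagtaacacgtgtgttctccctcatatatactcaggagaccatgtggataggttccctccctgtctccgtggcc
The Cyp26a1 repeat, read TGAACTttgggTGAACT on the strand shown, lies on the opposite strand at bases 159 to 175 of the window. The Rarb repeat, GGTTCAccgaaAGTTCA, lies on the strand shown at bases 275 to 291. A repeat spaced by 5 bases was found in 128 of 33469 promoter windows (0.382%), one spaced by 1 base in 0.233%, one spaced by 2 bases in 0.17%, and an element on its own in 44.4%. Among the 8 members with a window (Rdh10 had none in the table) only Cyp26a1 and Rarb held a repeat of any of these spacings, and overlapping matches were allowed. These are matches of letters in a short window, and binding was not measured.

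Levels below are in CPM, each gene's reads on its own strand relative to its library's total scaled by TMM, and are compared between libraries and not between genes, since gene length was not used. The libraries held 4050722 to 12074939 counts on genes, with 37.6 to 61.1% of them from the 2 most abundant genes. Replicates of a group correlated at 0.937 to 0.986. All 10 extraembryonic endoderm markers (among them Gata4, Gata6, Sox17 and Pdgfra) were detected in every group, which matches the labelled cell type. The share of mitochondrial transcripts outside the 2 most abundant genes was 7.91 to 9.31% in vesicles with serum, 7.11 to 9.43% in vesicles without it, 6.76 to 8.91% in sorted vacuolated cells, 2.88 to 4.08% in CHIR-vacuolated cells, 3.29 to 4.32% in BCS-vacuolated cells and 3.13 to 3.38% in normal cells. With the mitochondrial genes and the 2 most abundant genes left out, every call on a retinoid gene given below was kept.

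Stra6, the uptake receptor, was lower in both kinds of vesicle and was the member with the largest change. It had 1.52, 6.12 and 4.84 CPM in serum vesicles, 0.38, 0.12 and 1.05 CPM in serum-free vesicles, and 29.8, 25.9 and 27.8 CPM in normal cells. The vesicle libraries lay far under the normal ones with no overlap, and the serum-free libraries, with 2, 1 and 9 reads, lay under all serum vesicle libraries. Relative to normal cells, Stra6 fell by 2.74 ± 0.35 on the log2 scale in serum vesicles (6.70-fold lower; edgeR quasi-likelihood test with Benjamini-Hochberg adjustment over all 11503 genes, adjusted p = 1.35e-06) and fell by 5.64 ± 0.47 in serum-free vesicles (50.03-fold lower; edgeR adjusted p = 4.42e-09); here and below ± on a log2 change is the standard error. Between the vesicles, Stra6 was a further 7.47-fold lower without serum (log2 change -2.90 ± 0.59, edgeR adjusted p = 0.00153). The labels describe 1 medium for vesicles and do not say whether LIF, base medium or CHIR99021 also differed with serum, so this compares the 2 kinds of vesicle, not serum alone. In bulk RNA, fewer cells that express a gene and less RNA per cell cannot be told apart.

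In vacuolated cells no change of Stra6 passed the test in the fit over all 18 libraries. Sorted vacuolated cells had 35.3, 42.7 and 39.1 CPM, BCS-vacuolated cells 31.0, 54.6 and 30.6 CPM, and CHIR-vacuolated cells 21.7, 20.9 and 30.2 CPM. All sorted and all BCS libraries stood above the 3 normal ones, but neither difference passed the edgeR test (log2 change 0.49 with a 95% interval of -0.09 to 1.07 in sorted cells, adjusted p = 0.211, and 0.48 with an interval of -0.10 to 1.07 in BCS-vacuolated cells, adjusted p = 0.239). The sorted difference did pass when the 2 groups were fitted alone (0.50, edgeR adjusted p = 0.00558) and without the low-count filter (0.50, 0.0431). CHIR-vacuolated cells overlapped the normal ones (-0.20, interval -0.79 to 0.40). Ordered by mean level, Stra6 ran from sorted vacuolated cells (39.0 ± 3.72 CPM, SD, n = 3) through BCS-vacuolated, normal and CHIR-vacuolated cells to serum vesicles (4.16 ± 2.37) and serum-free vesicles (0.515 ± 0.479), a 75.7-fold span. In that order sorted and BCS-vacuolated cells overlapped, as did normal and CHIR-vacuolated cells, and the other neighbours did not.

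**Figure D1:**
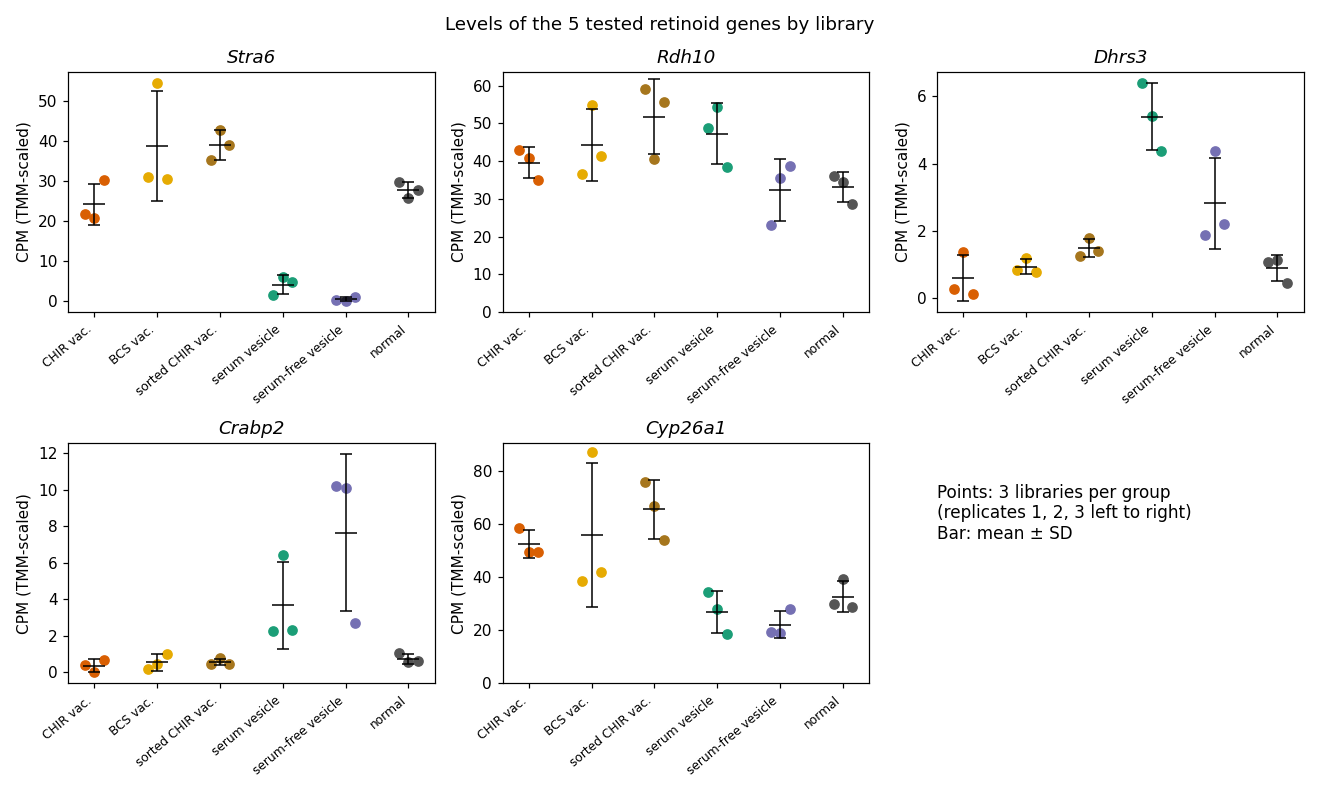
Level of the 5 tested retinoid genes in CPM (TMM-scaled, linear axes with their own range, 1 panel per gene) in each library; points are the 3 libraries of a group and bars are the mean ± SD. Stra6 is at 0.12 to 6.12 CPM in the 6 vesicle libraries and at 20.9 CPM or more in all others, while Dhrs3 and Crabp2 are highest in vesicles.

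Beside this fall of Stra6, the summed markers of visceral and of parietal endoderm were also lower in vesicles, with single markers in both directions. The visceral endoderm list had 9 markers with Rbp4 left out, and 1 of them, Trf, had no row under that symbol. They summed to 52.8 to 79.3 CPM in serum vesicles, 80.9 to 202 CPM in serum-free vesicles and 327 to 455 CPM in normal cells. Most of the normal sum came from Cubn and Amn, the paired subunits of an endocytic receptor, both lower in vesicles. Hnf4a went the other way, at 34.1 to 44.9 CPM in serum and 51.9 to 75.9 CPM in serum-free vesicles, against 7.87 to 9.21 CPM in normal cells. Apob averaged 3.16 CPM in serum and 2.89 CPM in serum-free vesicles, the latter mostly from replicate 2, against 0.06 CPM in normal cells. Ttr, Afp, Apoa1 and Fgb had no read in normal cells. In serum vesicles Ttr alone had none. Serum-free vesicles had reads of every measured marker, but replicate 2 held 252 of 259 Afp reads, 346 of 348 Apoa1 reads, 87 of 88 Fgb reads and all 3 Ttr reads, and its summed level was 202 CPM against 109 and 80.9 CPM in the other serum-free libraries. Parietal endoderm markers, a list of 7 with none at 0, summed to 759.6 to 886 CPM in serum vesicles and 1225 to 1405 CPM in serum-free vesicles, against 1863 to 1888 CPM in normal cells. Among them Thbd averaged 26.4 CPM in serum vesicles and 34.9 CPM in serum-free vesicles, against 264 CPM in normal cells, and Vim 4.17 and 19.4 CPM, against 108 CPM, while Plat and Fst had higher means in both kinds of vesicle than in normal cells. Of the labelled cell type's markers, Gata6 averaged 13.8 CPM in serum and 15.8 CPM in serum-free vesicles, against 80.1 CPM in normal cells. Dab2 averaged 42.2 and 127 CPM, against 195 CPM, and Gata4, Sox17, Sparc, Lama1 and Col4a1 also had lower means in both kinds of vesicle. Foxa2 (47.0 and 44.6 CPM, against 24.3 CPM), Pdgfra (244 and 293 CPM, against 197 CPM) and Sox7 had higher means in both. Neural markers summed to 10.8 to 16 CPM in serum vesicles and 10.9 to 37.0 CPM in serum-free vesicles, against 207 to 211 CPM in normal cells, with Nefl and Pax6 at 0 in serum-free vesicles and normal cells and Nefm at 0 in serum vesicles. Epiblast markers summed to 102 to 133 CPM in normal cells, and to at most 2.92 CPM in serum and 1.63 CPM in serum-free vesicles. Nearly all of that normal sum was Pou5f1, at 118 CPM in normal cells, 1.25 CPM in serum and 0.746 CPM in serum-free vesicles. Trophoblast markers summed to 7.87 to 10.1 CPM in normal cells, 22.0 to 33.8 CPM in serum and 19.5 to 28.4 CPM in serum-free vesicles. Among them Eomes averaged 8.25 CPM in normal cells against 0.854 and 0.969 CPM in those vesicles, and Tfap2c also had lower means there. Nanog and Sox2 were at 0 in serum-free vesicles and normal cells, Elf5 and Tfap2c in serum vesicles, and Cdx2 and Krt7 in normal cells, while Cdx2 had 25 CPM in serum and 22.2 CPM in serum-free vesicles. Fibroblast markers, for feeder cells, summed to 1.98 to 18.5 CPM over all 18 libraries. The part of these differences in the retinoid results was not tested.

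Rbp4, the retinol carrier, had reads almost only in vesicles. Its counts were 14, 5 and 4 in serum vesicles and 0, 10 and 0 in serum-free vesicles, against no read in the 3 normal libraries; sorted vacuolated cells had none, and CHIR- and BCS-vacuolated cells had 1 read each in all. All 3 serum vesicle libraries had reads, while the serum-free count came from replicate 2 alone, the library that also held nearly all Afp, Apoa1 and Fgb reads of its group. Among serum vesicles replicate 1, with the most Rbp4 reads, held 8 of 11 Apoa1 reads and all 8 Fgb reads. The part of these visceral endoderm products in the Rbp4 result was not tested. With the 3 normal libraries together set to a floor of 3 counts, Rbp4 was at least 7.37-fold higher in serum vesicles and its ratio in serum-free vesicles, from that library, came to at least 2.62-fold. In an edgeR fit without the low-count filter (20171 genes) Rbp4 had an adjusted p of 0.00226 with serum, 0.0440 without serum and 0.431 between the vesicles.

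Rdh10, which makes retinal, varied little, with a 1.60-fold span between the group means. It had 48.7, 54.4 and 38.5 CPM in serum vesicles, 23.2, 35.5 and 38.7 CPM in serum-free vesicles, 59.1, 40.5 and 55.7 CPM in sorted vacuolated cells, and 36.1, 34.5 and 28.8 CPM in normal cells. Serum vesicles and sorted vacuolated cells lay above all normal libraries, and serum-free vesicles spread on both sides of them. Rdh10 rose 1.57-fold in sorted vacuolated cells (log2 change 0.65 ± 0.19, edgeR adjusted p = 0.0136) and 1.43-fold in serum vesicles (0.52 ± 0.19, edgeR adjusted p = 0.0224). In serum-free vesicles its change was -0.02 with a 95% interval of -0.41 to 0.38 (edgeR adjusted p = 0.950), and it was 1.45-fold lower there than in serum vesicles (-0.54 ± 0.19, edgeR adjusted p = 0.0419). These calls were near the threshold: the one in sorted cells was lost without normal replicate 3 (adjusted p = 0.0770), sorted replicate 1 (0.0643) or sorted replicate 3 (0.0535), and the one in serum vesicles without normal replicate 2 (0.0527) or 3 (0.110) or serum vesicle replicate 1 (0.0592) or 2 (0.105), all by edgeR. The difference between the vesicles was lost under 12 of 26 alternatives, among them serum-free vesicle replicate 1 left out (log2 change -0.35, edgeR adjusted p = 0.183), and with the replicate number as a block (edgeR adjusted p = 0.0553).

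In unsorted vacuolated cells Rdh10 had 42.9, 40.9 and 35.0 CPM with CHIR99021 and 36.6, 54.8 and 41.3 CPM with BCS. The BCS libraries stood just above the normal ones without passing the test (0.43, interval 0.03 to 0.82, edgeR adjusted p = 0.117), and the CHIR libraries overlapped them (0.26, interval -0.14 to 0.66). In the order of group means, from sorted vacuolated cells at 51.8 ± 9.93 CPM to serum-free vesicles at 32.4 ± 8.18 CPM (SD, n = 3 each), every neighbouring pair overlapped.

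Dhrs3, which turns retinal back into retinol, was higher in both kinds of vesicle. It had 6.39, 5.43 and 4.38 CPM in serum vesicles, 1.88, 4.37 and 2.21 CPM in serum-free vesicles, and 1.08, 1.15 and 0.45 CPM in normal cells. No vesicle library overlapped the normal ones, although the gene was low throughout, with 19 to 42 reads in serum vesicles, 10 to 36 in serum-free vesicles and 3 to 6 in normal cells. Dhrs3 rose 6.13-fold in serum vesicles (log2 change 2.61 ± 0.53, edgeR adjusted p = 0.000150) and 3.24-fold in serum-free vesicles (1.70 ± 0.55, edgeR adjusted p = 0.00990). The serum-free call was lost without normal replicate 3 (1.35, edgeR adjusted p = 0.0658) or serum-free vesicle replicate 2 (1.23, 0.0921), the library high in visceral endoderm markers. Between the vesicles the change was -0.92 with an interval of -1.83 to -0.01 (edgeR adjusted p = 0.132).

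Vacuolated cells had Dhrs3 at 1.27, 1.79 and 1.42 CPM after sorting, 0.28, 1.38 and 0.14 CPM with CHIR99021 unsorted, and 0.85, 1.21 and 0.78 CPM with BCS. The sorted libraries stood above the normal ones without passing the test (0.76, interval -0.40 to 1.92), and the other vacuolated groups overlapped normal cells. Across the groups the mean ran from 5.40 CPM in serum vesicles to 0.599 CPM in CHIR-vacuolated cells, a 9.01-fold span, with no overlap between serum vesicles, serum-free vesicles, sorted vacuolated cells and BCS-vacuolated cells in that order.

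Aldh1a2, the retinoic acid-making dehydrogenase best known from the embryo, was close to absent. It had no read in serum vesicles and 1, 0 and 3 reads in serum-free vesicles, against 2, 2 and 1 in normal cells, and CHIR-vacuolated, BCS-vacuolated and sorted vacuolated cells had 5, 0 and 2 reads in all. No difference from normal cells passed the edgeR test without the filter, where the lowest adjusted p was 0.129, for serum vesicles. A difference in Aldh1a2 was thus not detectable at this depth.

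Of the cytoplasmic carriers, Crabp2 was higher in vesicles and Crabp1 was near the limit of detection. Outside vesicles Crabp2 had at most 8 reads in any library, so it passed the low-count filter only through its vesicle reads. Crabp2 had 2.28, 6.40 and 2.31 CPM in serum vesicles, 10.2, 10.1 and 2.68 CPM in serum-free vesicles, and 1.08, 0.58 and 0.61 CPM in normal cells. All 6 vesicle libraries were above the normal ones, with serum vesicle replicate 2 and serum-free vesicle replicates 1 and 2 highest. Crabp2 rose 4.92-fold in serum vesicles (log2 change 2.30 ± 0.65, edgeR adjusted p = 0.00401) and 9.89-fold in serum-free vesicles (3.31 ± 0.63, edgeR adjusted p = 8.24e-05). Without serum vesicle replicate 2 the serum value was 1.59 and no longer passed (edgeR adjusted p = 0.0576). The vesicles differed by 1.01 with an interval of -0.04 to 2.05 (edgeR adjusted p = 0.151), and this difference passed without serum vesicle replicate 2 (1.72, 0.0320) or serum-free vesicle replicate 3 (1.43, 0.0429).

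In vacuolated cells Crabp2 had 0.46, 0.78 and 0.47 CPM after sorting, 0.42, 0 and 0.68 CPM with CHIR99021 unsorted and 0.17, 0.44 and 1.04 CPM with BCS, all overlapping normal cells. The group means spanned 20.8-fold, from 7.64 ± 4.30 CPM in serum-free vesicles to 0.368 ± 0.345 CPM in CHIR-vacuolated cells (SD, n = 3 each). The vesicle groups overlapped each other, the 4 other groups overlapped their neighbours, and serum vesicles did not overlap normal cells. Crabp1 had 5 reads in the whole series: 2 in serum vesicles, 1 in sorted and 1 in CHIR-vacuolated cells, and 1 in normal cells.

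Rarb, the receptor with the repeat shown in its promoter, had 0 to 6 reads per library. Its counts were 3, 5 and 4 in sorted vacuolated cells, 0, 4 and 6 in serum vesicles and 1, 0 and 4 in serum-free vesicles, against 1, 0 and 0 in normal cells; CHIR- and BCS-vacuolated cells had 1 read each in all. Sorted vacuolated cells were the only group with reads in all 3 libraries. The ratio to normal cells was 6.89 in sorted cells (95% counting interval 1.02 to 294) and 9.61 in serum vesicles (1.37 to 417), and neither passed the edgeR test without the filter (adjusted p = 0.375 and 0.131). On the strand opposite to Rarb there were 15 reads in serum vesicles (0, 3 and 12) and 14 in sorted cells (6, 4 and 4), against none in normal cells, so the opposite strand held more reads than the gene's own in both groups. Counting intervals and floors cover counting error only.

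**Figure D2:**
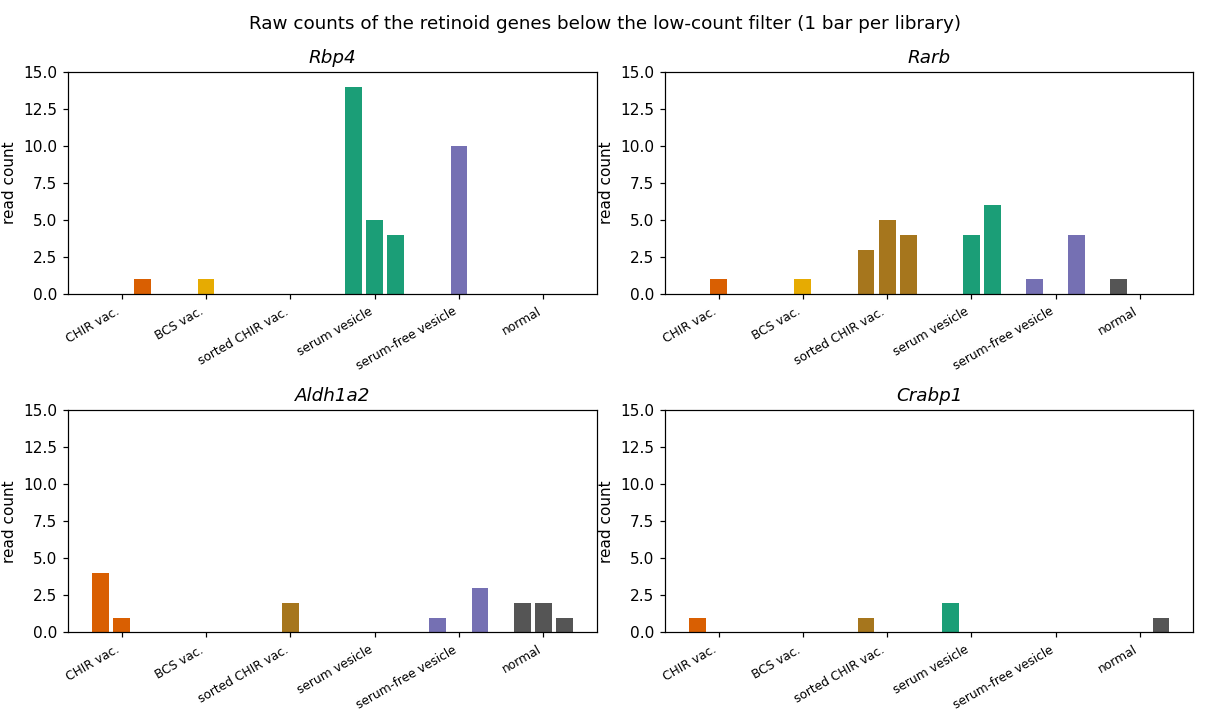
Raw read counts (linear axis from 0) of Rbp4, Aldh1a2, Crabp1 and Rarb, with 1 bar per library in each of the 6 groups. Rbp4 reaches 14 reads in a serum vesicle library and is at 0 in every normal library, and Rarb has 3 to 5 reads in each sorted library.

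Cyp26a1, the retinoic acid-clearing enzyme whose promoter is shown above, was higher than normal in sorted vacuolated cells and, through 1 library, in BCS-vacuolated cells; no change passed in vesicles. Sorted vacuolated cells had 75.8, 66.8 and 54.0 CPM, CHIR-vacuolated cells 58.6, 49.3 and 49.6 CPM, BCS-vacuolated cells 38.7, 87.0 and 41.8 CPM, and normal cells 29.8, 39.3 and 28.8 CPM. All sorted and all CHIR libraries stood above every normal one, and BCS replicate 2 stood apart from the other BCS libraries. Cyp26a1 rose 2.01-fold in sorted vacuolated cells (log2 change 1.01 ± 0.27, edgeR adjusted p = 0.0111), a call lost without normal replicate 3 (0.92, edgeR adjusted p = 0.0514). In CHIR-vacuolated cells the change was 0.69 ± 0.27 (interval 0.11 to 1.27, edgeR adjusted p = 0.146); it passed when the 2 groups were fitted alone (edgeR adjusted p = 0.000211), without the low-count filter (0.00138) or without BCS replicate 2 (0.0207).

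In BCS-vacuolated cells Cyp26a1 was 1.73-fold higher than in normal cells (log2 change 0.79 ± 0.27, edgeR adjusted p = 0.0490), and this rested on 1 library. Without BCS replicate 2 the change was 0.31 (edgeR adjusted p = 0.320), and with the replicate number as a block the adjusted p was 0.0504; the call was lost under 17 of 26 alternatives. BCS replicate 2 was at passage 32, against 41 and 42 for the others, and its neural markers summed to 96.2 CPM against 26.8 and 28.1 CPM, with Nefl and Pax6 at 0 in the group. In BCS-vacuolated cells that library was also highest for Stra6 and Rdh10. The part of passage in that library's values was not tested apart from the fit with passage as a covariate, in which the Cyp26a1 change was 0.60 (edgeR adjusted p = 0.0712).

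Vesicles had Cyp26a1 at 34.4, 28.0 and 18.7 CPM with serum and 19.4, 19.1 and 27.8 CPM without. The serum libraries overlapped normal cells and the serum-free ones lay just under them, and neither change passed the edgeR test (-0.25, interval -0.85 to 0.34, adjusted p = 0.457 with serum; -0.55, interval -1.15 to 0.05, adjusted p = 0.107 without). The serum-free change passed under 5 of 26 alternatives, among them passage as a covariate (-0.73, edgeR adjusted p = 0.0138) and BCS replicate 1 (-0.62, 0.0438) or replicate 2 (-0.55, 0.0188) left out. The group means ran from 65.5 ± 10.99 CPM in sorted vacuolated cells to 22.1 ± 4.97 CPM in serum-free vesicles (SD, n = 3 each), a 2.97-fold span. Only CHIR-vacuolated and normal cells did not overlap as neighbours in that order.

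**Figure D3:**
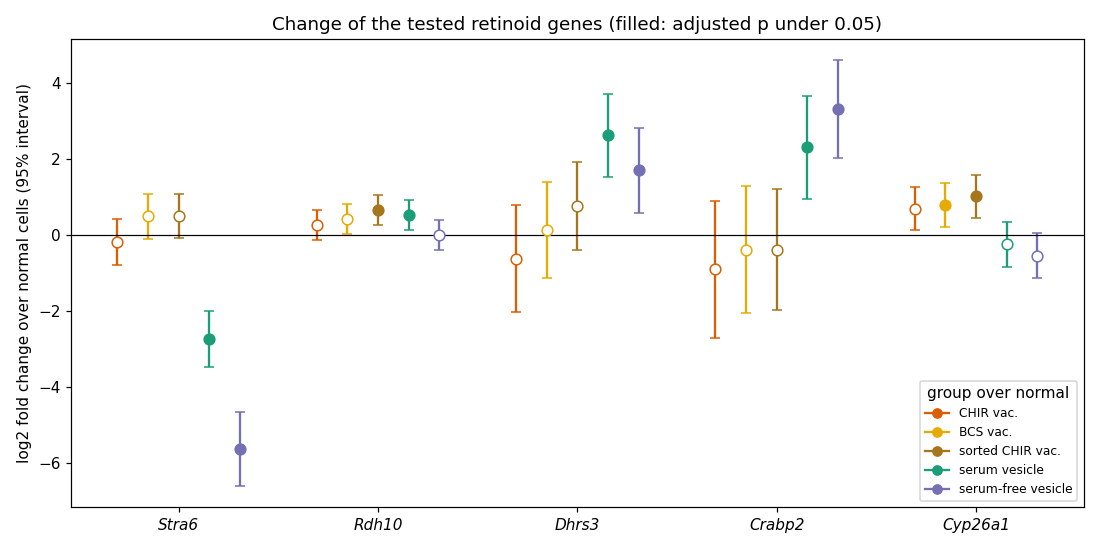
Log2 fold change over normal cells of the 5 tested retinoid genes in each of the 5 other groups, with 95% intervals; filled points have an edgeR adjusted p under 0.05. The vesicle points of Stra6 lie at -2.74 and -5.64, those of Dhrs3 and Crabp2 lie between 1.70 and 3.31, and the filled points of Cyp26a1 are the sorted and BCS-vacuolated cells.

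Counted by comparison, the 5 tested members stood as follows beside all 11503 genes. In serum vesicles against normal cells 3 were higher and 1 lower, where 31.7% of all genes were called higher and 28.8% lower (60.4% in either direction). In serum-free vesicles against normal cells 2 were higher and 1 lower, where 30.2% of all genes were higher and 27.5% lower (57.7% in all). With so many genes called, a share of 4 or 3 in 5 is near the background. Crabp2 is among the higher members in both, and in serum vesicles against CHIR-vacuolated cells below. Having passed the filter only through its vesicle reads, it could hardly count as lower there. In sorted vacuolated cells against normal cells 2 were higher (14.4% of all genes were higher and 11.5% lower, 25.9% in all), in BCS-vacuolated cells 1 (11.2% higher, 9.51% lower and 20.7% in all), and in CHIR-vacuolated cells none (4.49% of all genes were higher, 3.13% lower and 7.62% in all; at an unadjusted p under 0.05 edgeR had 1, Cyp26a1, and DESeq2 called none). These comparisons share the normal libraries.

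Set directly against CHIR-vacuolated cells, serum vesicles differed in 4 of the 5 members, 2 higher and 2 lower, where 30.3% of all genes were higher and 27.6% lower (58.0% in all). Stra6 fell by 2.55 ± 0.35 on the log2 scale (edgeR adjusted p = 4.08e-06) and Cyp26a1 by 0.94 ± 0.28 (edgeR adjusted p = 0.00730). Dhrs3 was higher by 3.25 ± 0.55 (edgeR adjusted p = 2.16e-05) and Crabp2 by 3.21 ± 0.70 (edgeR adjusted p = 0.000424), with the libraries not overlapping for any of the 4. Rdh10 differed by 0.26 with an interval of -0.13 to 0.65. All 4 calls were kept under all 26 alternatives.

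In serum-free against serum vesicles 2 of the 5 members were called, both lower (12.9% of all genes were higher and 11.5% lower, 24.4% in all), the Stra6 and Rdh10 differences given above. Sorted against unsorted CHIR-vacuolated cells gave no call among the members by edgeR's quasi-likelihood test (6.69% of all genes were higher and 5.05% lower, 11.7% in all), with 3 at an unadjusted p under 0.05 and none called by DESeq2. The 3 were Stra6 (0.68, interval 0.10 to 1.26), Rdh10 (0.39, interval 0.01 to 0.77) and Dhrs3 (1.39, interval 0.17 to 2.61), and Stra6 was the one whose libraries did not overlap. Each passed under some alternative by edgeR: Stra6 with the 2 groups alone (adjusted p = 0.00185) or without the low-count filter (0.00435), Rdh10 with the 2 groups alone (0.0435), and Dhrs3 without CHIR-vacuolated replicate 2 (log2 change 2.75, adjusted p = 0.0219). CHIR- against BCS-vacuolated cells gave none either by edgeR (5.83% of all genes were higher and 7.40% lower, 13.2% in all), with Stra6 alone at an unadjusted p under 0.05 (-0.68, interval -1.26 to -0.10) and none called by DESeq2. That Stra6 difference passed without the low-count filter (edgeR adjusted p = 0.00465) and without serum vesicle replicate 1 (0.0497).

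The wider retinoid pathway, a list of 43 further genes of which 39 were in the files and 23 were tested, had more genes higher than lower in vesicles. In serum vesicles against normal cells 11 of the 23 were higher and 3 lower (60.9% called, against 60.4% of all genes), with a median log2 change of 1.07 against 0.06 over all genes. In serum-free vesicles against normal cells 12 were higher and 4 lower (69.6%, against 57.7%), with a median of 0.93 against 0.03. The medians did not move when Dhrs9, which had no read in normal cells, was set at its bound.

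Aldh1a1, another dehydrogenase that makes retinoic acid from retinal, was higher in both kinds of vesicle. It had 25.7, 16.1 and 32.5 CPM in serum vesicles, 3.77, 19.1 and 11.4 CPM in serum-free vesicles, and 1.08, 0.38 and 1.67 CPM in normal cells. No vesicle library overlapped the normal ones, and Aldh1a1 rose 22.4-fold with serum (4.49 ± 0.49, edgeR adjusted p = 8.93e-08) and 10.6-fold without (3.41 ± 0.50, edgeR adjusted p = 6.01e-06). Dhrs9, a retinol dehydrogenase, had 49 reads in serum vesicles and 101 in serum-free vesicles against none in normal cells, at least 15.7-fold and at least 26.5-fold higher when the normal group as a whole is set to the 3-count limit. Serum-free replicate 2 held 68 of the 101 reads, and without it the serum-free bound was 13.8-fold, under the serum one (an alternative added after seeing the data). The receptor coregulators Ncoa1 and Nrip1 rose 3.28-fold and 4.33-fold in serum vesicles, and Ncoa1 3.02-fold in serum-free vesicles (edgeR adjusted p at most 4.29e-07).

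On the lower side, Cubn, part of a receptor that endocytoses vitamin carriers, had 15.5, 5.01 and 4.84 CPM in serum vesicles and 29.6, 42.0 and 26.7 CPM in serum-free vesicles, against 394, 255 and 383 CPM in normal cells. The vesicle libraries lay far below, and Cubn fell by 5.31 ± 0.38 on the log2 scale with serum and by 3.39 ± 0.33 without (edgeR adjusted p = 1.45e-08 and 5.00e-07). Its endocytic partner Lrp2 went the other way, with 480, 321 and 727 CPM in serum vesicles and 457, 189 and 104 CPM in serum-free vesicles, against 49.2, 31.5 and 39.1 CPM in normal cells. Every vesicle library lay above the normal ones, and Lrp2 rose 12.7-fold with serum (3.67 ± 0.49, edgeR adjusted p = 2.66e-05) and 6.23-fold without (2.64 ± 0.47, edgeR adjusted p = 0.000375); its vesicle values are given, outside the naming rule, because Cubn's are. Dgat1, an acyltransferase that can esterify retinol, fell 2.49-fold in serum and 3.65-fold in serum-free vesicles (edgeR adjusted p = 1.07e-06 and 6.50e-09). Rxra, the partner of the retinoic acid receptors, fell 2.598-fold in serum-free vesicles (edgeR adjusted p = 0.00109), and Adh5 1.39-fold in serum vesicles (edgeR adjusted p = 0.00523).

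**Figure D4:**
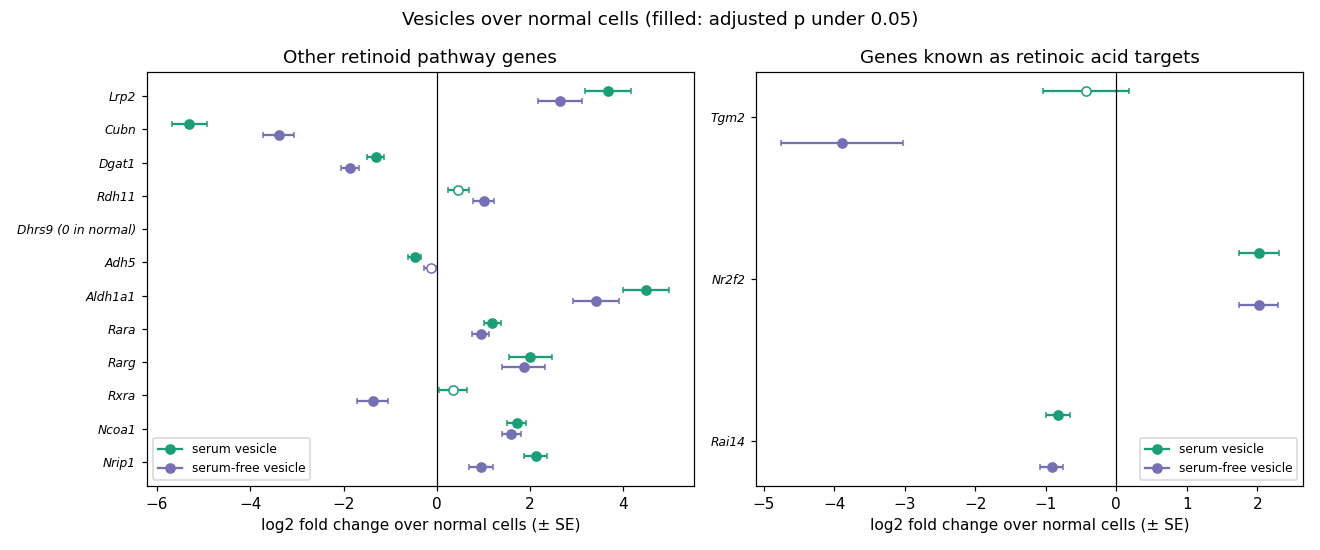
Log2 fold change over normal cells (± SE) of the named genes of the retinoid pathway list and of the retinoic acid target list, in serum and serum-free vesicles; filled points have an edgeR adjusted p under 0.05. Aldh1a1 lies at 4.49 and 3.41 and Cubn at -5.31 and -3.39; Dhrs9 has no point because it had no read in normal cells, and the fitted serum-free value of Tgm2 rests on 3 reads.

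In vacuolated cells fewer pathway genes changed. Sorted vacuolated cells had 1 higher and 3 lower against normal cells (17.4%, against 25.9% of all genes; 2 higher and 2 lower without BCS replicate 2), the higher one being Lrp2 at 156.7 ± 21.7 CPM against 39.9 ± 8.88 CPM in normal cells (3.92-fold, edgeR adjusted p = 0.00797; SD, n = 3 each). All CHIR- and BCS-vacuolated libraries were also above the normal ones for Lrp2, at 105 to 132 CPM and 74.3 to 115 CPM, without passing the test (edgeR adjusted p = 0.0628 and 0.0742). BCS-vacuolated cells had 3 higher and 3 lower (26.1%, against 20.7%). Among them the receptors Rarg and Rara rose 4.37-fold and 1.66-fold and Rdh11, a retinal reductase, rose 1.92-fold (edgeR adjusted p at most 0.00541). In CHIR-vacuolated cells 1 of 23 changed, Dgat1, which was lower in all 5 groups against normal cells (1.84-fold lower in CHIR-vacuolated, 1.62-fold in BCS-vacuolated and 1.69-fold in sorted cells, edgeR adjusted p at most 0.00627).

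Between the other pairs of groups, CHIR- against BCS-vacuolated cells had 2 pathway genes higher and 6 lower (34.8%, against 13.2% of all genes), with Rarg 3.75-fold and Rdh11 2.12-fold lower with CHIR99021 (edgeR adjusted p = 0.00437 and 0.00196). Serum-free against serum vesicles had 3 higher and 5 lower (34.8%, against 24.4%), with Cubn 3.78-fold higher and Rxra 3.32-fold and Aldh1a1 2.11-fold lower without serum (edgeR adjusted p = 0.00216, 0.000524 and 0.0351). Sorted against unsorted CHIR-vacuolated cells had none of 23 by edgeR (3 at an unadjusted p under 0.05, and 1 lower by DESeq2; 11.7% of all genes), and serum vesicles against CHIR-vacuolated cells 13 higher and 4 lower (73.9%, against 58.0%).

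Of 22 listed retinoic acid targets 21 were in the files and 10 were tested, and in vesicles they moved in both directions. In serum vesicles against normal cells 5 were higher and 3 lower (80% called, against 60.4% of all genes) with a median log2 change of 0.37 against 0.06 over all genes (3 higher without BCS replicate 2, an alternative added after seeing the data), and in serum-free vesicles 4 were higher and 4 lower (80%, against 57.7%) with a median of -0.03 against 0.03. The nuclear receptor Nr2f2 had 10.8, 10.0 and 15.2 CPM in serum vesicles and 9.41, 13.2 and 12.6 CPM in serum-free vesicles against 2.15, 2.69 and 3.78 CPM in normal cells. It was above normal in every library of the 5 other groups, and rose 4.06-fold in serum vesicles, 4.05-fold in serum-free vesicles, 2.73-fold in sorted, 2.51-fold in CHIR- and 1.82-fold in BCS-vacuolated cells (edgeR adjusted p at most 0.0353).

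Tgm2, the tissue transglutaminase, was at 0.166 ± 0.0546 CPM in sorted and 0.357 ± 0.139 CPM in CHIR-vacuolated cells, against 2.22 ± 0.687 CPM in normal cells (SD, n = 3 each; 12.3-fold and 6.15-fold lower, edgeR adjusted p = 0.00135 and 0.0303). In serum-free vesicles Tgm2 had 3 reads against 39 in normal cells (edgeR adjusted p = 0.000456). Rai14 fell 1.77-fold in serum vesicles and 1.89-fold in serum-free vesicles (edgeR adjusted p at most 0.000123).

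Among the other comparisons the targets had 2 of 10 called (20%) in each of 5. These were 1 higher and 1 lower in CHIR-vacuolated cells (against 7.62% of all genes called), 1 higher and 1 lower in sorted vacuolated cells (25.9%) and 2 higher in BCS-vacuolated cells (20.7%; 1 without BCS replicate 2, and 1 by DESeq2). Serum-free against serum vesicles had 1 higher and 1 lower (24.4% of all genes), and CHIR- against BCS-vacuolated cells 2 lower (13.2%). Serum vesicles against CHIR-vacuolated cells had 5 higher and 3 lower (80%, against 58.0%). Sorted against unsorted cells had none (11.7% of all genes), where edgeR also had 0 at an unadjusted p under 0.05 and DESeq2 called 0.

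The genes whose log2 CPM followed each member most closely over the 18 libraries were named as a description. Symbols that start with LOC, RGD, AABR or Mt-, or with AC or RF and digits, were passed over. For Stra6 they were Tmeff1 (Pearson r = 0.978), Dzip1l (0.976) and Adarb1 (0.971). The libraries fall into vesicles and others, and within the 12 libraries that were not vesicles these r were 0.53 to 0.62. For Cyp26a1 they were Loxl4 (0.914, and 0.877 within those 12), Crmp1 (0.880, and 0.718) and Cpox (0.873, and 0.854). Dhrs3 was followed by Itfg2 (0.922, and 0.740 within those 12), Crabp2 by Sh3bgrl2 (0.929, and 0.556) and Rdh10 by Ofd1 (0.832, and 0.804).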

How the data were processed

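Ribosomal RNA was removed and directional libraries were sequenced as read pairs, per the labels' protocols. Reads were processed with bcl2fastq, Trimmomatic 0.38 and STAR 2.6.1 on build rn6, per the submitters' processing notes; the counter and its annotation are not given in the sources used here. The deposited files hold raw counts per gene, unstranded and for each strand, 1 file per library. The gene-strand counts were used, and the opposite strand held 1.70 to 2.85% of the counts on the 2 strands.

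Counts were tested with edgeR 4.0.16 (R 4.3.3, limma 3.58.1): TMM scaling, filterByExpr by group (minimum count 10), and a robust quasi-likelihood fit of the 6 groups over all 18 libraries (12 residual degrees of freedom), with 9 contrasts and Benjamini-Hochberg adjustment over 11503 genes at 0.05. Standard errors of log2 changes came from the change and its F statistic. CPM used TMM-scaled totals. Log2 CPM for correlations had a prior count of 2. Folds against a group at 0 used a floor of 3 counts over the group. Intervals are at the 95% level; count ratios have exact binomial ones. The tests were also tested on simulated data. Alternatives were DESeq2 1.42.0, RLE scaling, no filter, unstranded counts, the compared groups alone, passage as a covariate, a replicate block, no mitochondrial and 2 most abundant genes, and each library left out.

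The members and gene lists were chosen with earlier results of these data known. From each list, at most the 3 higher and 3 lower genes with the smallest adjusted p were named per comparison. For each member the 3 most correlated genes were taken, with the kinds of symbol given above passed over. Some genes of the lists are counted but not reported here by name. Promoter letters are from RefSeq, GRCr8, and no coordinates were moved between builds.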

Additional observations from a re-analysis of the deposited data

Results flagged for a closer look

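Reads on the strand opposite to a member were found in some groups where the normal libraries had none. Opposite to Rarb, sorted vacuolated cells had 14 reads (6, 4 and 4), against 12 on the gene's own strand. Serum vesicles had 15 (0, 3 and 12), against 10 on the gene's own strand. Opposite to Dhrs3, serum vesicles had 10 reads (1, 4 and 5), against 100 on the gene's own strand. Opposite to Cyp26a1, CHIR-vacuolated cells had 8 reads (5, 1 and 2), against 1067 on its own strand. Sorted vacuolated cells had 8 (2, 2 and 4), against 1940. Over all genes the opposite strand held 1.70 to 2.85% of the counts on the 2 strands, so the Cyp26a1 reads are below that share. These counts are few, and overlapping genes on the other strand were not examined.

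The direct contrast of serum-free with serum vesicles passed the test for 2 members. Whether LIF, base medium or CHIR99021 differed with serum is not given separately, and a part of serum alone cannot be told apart from them. Stra6 differed by -2.90 on the log2 scale, serum-free minus serum (edgeR adjusted p = 0.00153; lower in all 3 serum-free libraries than in any serum library). Rdh10 differed by -0.54 (edgeR adjusted p = 0.0419), with overlapping libraries, and this call was lost under 12 of 26 alternatives.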

How the results depend on the processing

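Of the values of the 16 called member results under 26 alternatives each, 376 kept their direction and call, 40 lost the call and none reversed. Stra6 in vesicles, Dhrs3 in serum vesicles and Crabp2 in serum-free vesicles kept theirs under all 26. Uncalled member differences gained a call in 18 cases: Cyp26a1 in CHIR-vacuolated cells and serum-free vesicles, Stra6 in sorted against normal and unsorted and in CHIR- against BCS-vacuolated cells, Crabp2 between vesicles, and Rdh10 and Dhrs3 in sorted against unsorted cells. Values that changed sign were all of uncalled differences: Rdh10 in serum-free vesicles (0.0028 with unstranded counts; -0.16 to 0.16 with libraries left out), Dhrs3 in BCS-vacuolated cells (-0.040 with passage; -0.21 to 0.37), and, CHIR- minus BCS-vacuolated, Cyp26a1 (0.10 with passage; -0.28 to 0.38), Rdh10 (-0.27 to 0.021) and Crabp2 (-1.25 to 0.24). The cause was not tested.

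Genes called moved by over 1.5 times when the compared groups were fitted alone: 1856 against 876 for CHIR-vacuolated cells, 1223 against 2806 for serum-free against serum vesicles and 2576 against 1350 for sorted against unsorted cells. With a library left out the counts were 504 to 1005 for CHIR-vacuolated, 1275 to 2631 for BCS-vacuolated and 1982 to 3209 for sorted cells against normal, 1725 to 3004 for serum-free against serum vesicles, 690 to 1603 for sorted against unsorted and 748 to 1947 for CHIR- against BCS-vacuolated cells; fewer libraries were then fitted.

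Deviations of same-numbered libraries from their group means correlated at -0.15 to 0.10, which cannot show that the libraries are unpaired. Some of them shared a passage, namely replicates 1 and 3 of CHIR-vacuolated and normal cells and replicates 1 and 2 of the 2 kinds of vesicle. The main fit used no pairing. With a replicate block the counts were 832, 2281, 2860, 6889 and 6555 for CHIR-, BCS-vacuolated, sorted, serum and serum-free groups against normal, 2568 between vesicles, 1232 for sorted against unsorted, 1451 for CHIR against BCS and 6574 for serum vesicles against CHIR-vacuolated cells; member calls lost were Cyp26a1 in BCS-vacuolated cells (edgeR adjusted p = 0.0504) and Rdh10 between vesicles (0.0553). Depth limits Rbp4, Rarb, Crabp1 and Aldh1a2, at 14 or fewer reads per library.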
